A study of Drosophila melanogaster with 2 samples.

Results

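The 52 protein-coding genes of the fly whose symbol begins with eIF or eEF encode cytoplasmic factors of protein synthesis. By that prefix, 44 were counted as initiation factors and 8 as elongation factors, although eIF6 and eIF4EHP have other roles described below. The 52 genes were picked by symbol from the 13945 protein-coding genes on the 6 chromosome arms (2L, 2R, 3L, 3R, 4 and X). This group was chosen with earlier results of these data known. Their promoters were looked up in chromatin immunoprecipitation sequencing (ChIP-seq) data for Sima in whole Drosophila melanogaster embryos. The embryos were 0 to 24 h old, of mixed sex, and carried a transgene for the RB isoform of sima with GFP fused to its C terminus, and an antibody against GFP was used for the precipitation. Sonication gave fragments between 200 and 800 bp. The data are 2 biological replicates of this 1 group. The promoter that drives the transgene, the other alleles of the line and the oxygen level of the embryos are not stated in the sources used here, and whole embryos mix all cell types. A second group or an embryo without the tag was not analysed here, so a region is described against the other regions and genes of the same lists.

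Sima is the fly form of HIF-1alpha, a transcription factor of the response to low oxygen that is broken down when oxygen is plentiful and that pairs with the Tango protein to bind short sites around the letters ACGTG or GCGTG. Translation begins when eIF2 brings the initiator tRNA to the small ribosomal subunit, eIF3 and the small factors eIF1 and eIF1A hold that complex ready, and the eIF4 proteins bind the mRNA cap, unwind the leader and let the complex scan for a start codon. eEF1A then delivers each aminoacyl-tRNA and eEF2 moves the ribosome along the message. Protein synthesis is one of the costliest processes of a cell, and low oxygen is known to restrain it, mainly through the cap-binding step and through phosphorylation of eIF2alpha.

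Each deposited region carries a signal value from the peak caller, and regions were ranked within their list from the strongest down. The list cut by its irreproducible discovery rate (IDR) holds 1272 regions, which are the strongest regions of the 30000 called on the pooled reads of both replicates. That pooled list is labelled as peaks and background for input to IDR, so its weaker regions may be background. Each replicate has its own list of 30000 regions. A gene was called bound when the summit of an IDR region lay no more than 500 bp from the first base of any of its transcripts. Read numbers are not known here, so signals are given as ranks and as ratios to the median signal of the same list. The intervals given for shares cover counting error over genes only and are not a test against all genes. Replicate 1 had 14 mitochondrial regions among its 30000 and replicate 2 had 0, and ranks within replicates are among nuclear regions.

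Sima peaks lay at the promoters of 7 of the 52 factor genes, or 13.5% (95% Wilson interval 6.68% to 25.3%), against 868 of 13945 protein-coding genes, or 6.22%. They were 6 of the 44 initiation factor genes (13.6%, interval 6.40% to 26.7%), namely eIF6, eIF3h, eIF3c, eIF1, eIF4EHP and eIF3a, and 1 of the 8 elongation factor genes (12.5%, interval 2.24% to 47.1%), eEF1gamma. The initiation and elongation shares differed by 1.14 percentage points and their intervals overlapped. Only eIF6 and eEF1gamma ranked within the first 100 regions of the pooled list.

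The count depended on the limit of distance and on the length of the list. Within 200 bp, 5 factor genes (9.62%) had an IDR summit, against 4.22% of all genes, and the calls at eIF1 and eIF4EHP ended. Within 1000 bp there were 8 (15.4%) against 7.44%, and within 2000 bp 9 (17.3%) against 9.42%, where eIF2Bbeta and then eEF1alpha1 were added. With the stronger 636 of the 1272 IDR regions, 3 factor genes were left (5.77%, eIF6, eIF3h and eEF1gamma), against 3.27% of all genes.

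**Figure D1:**
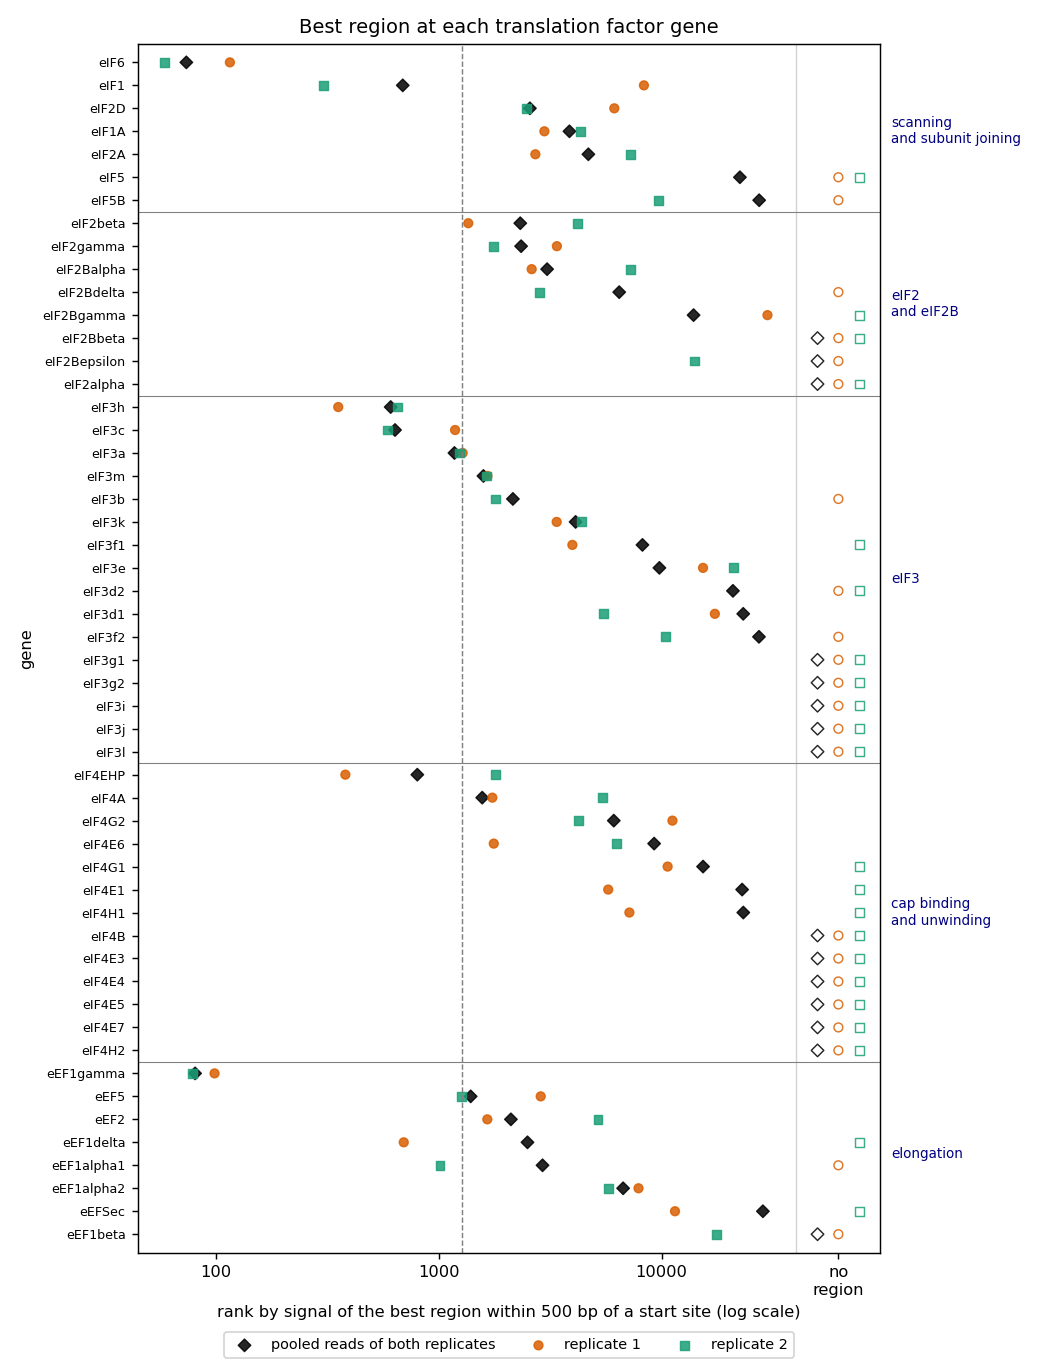
Rank by signal of the strongest region with a summit within 500 bp of a start site of each factor gene (log axis, strongest at the left), in the pooled list (black diamonds), replicate 1 (orange circles) and replicate 2 (green squares), with genes grouped by role and open markers at the right where a list has no such region. The dashed line marks rank 1272, the length of the IDR list, and 7 genes lie to its left in the pooled list.

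Weaker regions, which may include background, were common at the factor genes. Any pooled region lay within 500 bp of a start site in 37 of 52 factor genes (71.2%), made up of 30 of 44 initiation factor genes (68.2%) and 7 of 8 elongation factor genes (87.5%), against 48.0% of all protein-coding genes. A region in each of both replicate lists was found at 23 factor genes (44.2%), 19 for initiation and 4 for elongation, against 31.7% of all genes. A pooled rank of 2544 or better, which is double the length of the IDR list, was reached by 15 factor genes (28.8%) against 11.2% of all genes. That count was 11 of 44 initiation factor genes and 4 of 8 elongation factor genes.

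Several factor genes sat past the IDR list but within double its length. Ranks from 1273 to 2544 held the best region of 8 factor genes (15.4%), against 4.98% of all genes, and these were eIF4A, eIF3m, eIF3b, eIF2beta and eIF2gamma for initiation and eEF5, eEF2 and eEF1delta for elongation. The last bound gene in the order was eIF3a at rank 1178, and the first unbound one was eEF5 at rank 1393. With genes that lack a region placed last, the median best rank was 14621.5 for initiation factor genes and 2714.5 for elongation factor genes, and 9513.5 for all 52. The corresponding median over all protein-coding genes was the last place, since 52.0% of them had no region. Among genes with a region, the median was 4404.5 for initiation factors, 2504 for elongation factors and 7566 for all protein-coding genes.

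**Figure D2:**
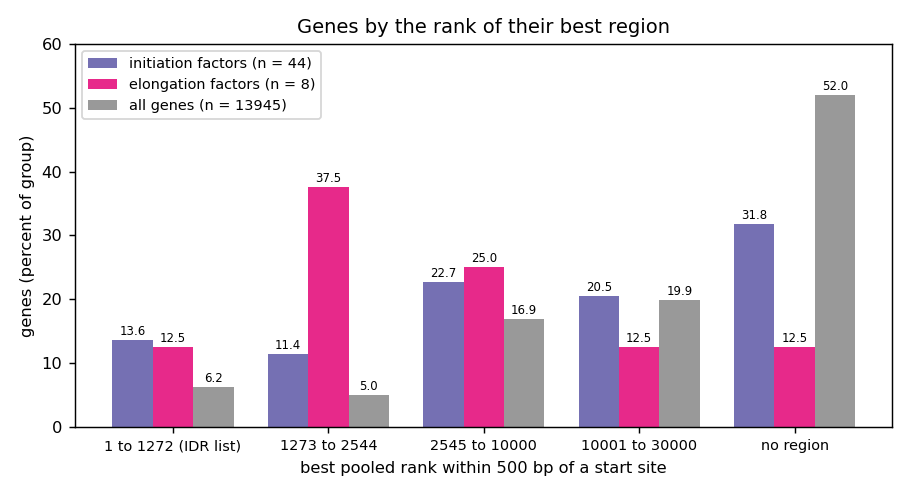
Percent of genes (vertical axis) by the rank of their best pooled region within 500 bp of a start site, for initiation factor genes, elongation factor genes and all protein-coding genes. Elongation factor genes stand highest in the class from 1273 to 2544, at 37.5%, against 11.4% of initiation factor genes and 4.98% of all genes.

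The replicates did not call quite the same genes. Among the strongest 1272 nuclear regions of replicate 1, 6 factor genes had a summit within 500 bp (eEF1delta, eEF1gamma, eIF3c, eIF3h, eIF4EHP and eIF6), against 5.56% of all genes. Among those of replicate 2, 8 did (eEF1alpha1, eEF1gamma, eEF5, eIF1, eIF3a, eIF3c, eIF3h and eIF6), against 6.54%. Only eIF6, eIF3h, eIF3c and eEF1gamma passed in both, which is 7.69% of the factor genes against 3.64% of all genes. The other bound genes, eIF1, eIF4EHP and eIF3a, were among the strongest 1272 of 1 replicate only.

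Among the factors of scanning and subunit joining, 2 of 7 genes were bound and all 7 had a pooled region, with a median rank of 3861. Over all protein-coding genes, 6.22% were bound, 48.0% had a pooled region and the median was the last place. The role groups are too small for more than a count. The gene eIF6 encodes a factor that keeps the large ribosomal subunit apart from the small one until it is mature. It lies at 2R 23849246 to 23850301 on the minus strand (dm6), and its IDR peak at 23850320 to 23850519 had rank 74 with a summit 95 bp upstream of the start site. The signal there was 5.94 times the list median in replicate 1 (rank 116) and 11.6 times in replicate 2 (rank 59), a mean of 8.77 ± 4.01 (SD, n = 2). Both replicates thus placed it near the top of their lists, although the ratio itself varied between them. The summit base falls in a noncoding exon, that of the antisense gene asRNA:CR45928, whose own start site lies 66 bp away.

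The gene eIF1, which encodes the small factor that guards the choice of start codon, lies at 3L 3223341 to 3224650 on the plus strand. Its peak at 3222786 to 3223181 had pooled rank 691 and a summit 357 bp upstream, and the signal was 1.24 times the list median in replicate 1 (rank 8330) and 5.59 times in replicate 2 (rank 305), a mean of 3.42 ± 3.08 (SD, n = 2). The call therefore rests on replicate 2. The same summit lies 24 bp upstream of the start of RpL28, a ribosomal protein gene of the large subunit, so the peak is nearer to that gene. Of the unbound genes in the group, eIF2D, which can load initiator tRNA outside the main pathway, had pooled rank 2567 and ratios of 1.38 in replicate 1 and 1.91 in replicate 2. For eIF1A, the partner of eIF1 on the small subunit, the pooled rank was 3861 and the ratios were 1.74 and 1.53 in replicates 1 and 2. The best regions of both genes stood above the list median in each replicate and well below eIF6. Those of eIF1A had summits 407 bp apart. The others were eIF2A at rank 4695, eIF5 at 22439 and eIF5B at 27372, the last of which encodes the GTPase that joins the subunits.

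None of the 8 genes for eIF2 and its exchange factor eIF2B was bound, and 5 of them had a pooled region, with a median rank of 10180 over the group. The shares over all protein-coding genes were 6.22% and 48.0%, and 8 genes allow no comparison with the first. The subunit that binds the GTPase-activating partner, eIF2beta, had pooled rank 2324 and ratios of 2.30 in replicate 1 (rank 1359) and 1.55 in replicate 2 (rank 4183). The GTP-binding subunit eIF2gamma had pooled rank 2344 and ratios of 1.67 in replicate 1 (rank 3392) and 2.25 in replicate 2 (rank 1759). Both had regions in each replicate, and each was higher in a different replicate. The eIF2beta summits of the replicates were 178 bp apart. Exchange factor subunits followed with eIF2Balpha at 3066, eIF2Bdelta at 6454 and eIF2Bgamma at 13906, and eIF2Bepsilon had a region in replicate 2 only. For eIF2alpha, the subunit that stress kinases phosphorylate, and for eIF2Bbeta, no region lay within 500 bp in any list.

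The gene eIF2Bbeta is a case of distance, since the strongest peak of all lies close to it. That peak, at X 2703717 to 2704059, had rank 1 in the pooled list, and its signal was 22.2 times the list median in replicate 1 (rank 2) and 40.5 times in replicate 2 (rank 1), a mean of 31.3 ± 13.0 (SD, n = 2). The summit is 682 bp upstream of eIF2Bbeta and 37 bp upstream of Ugalt, a gene for a carrier of UDP-galactose. With a limit of 500 bp it belongs to Ugalt alone.

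Of the 16 genes for eIF3, the large scaffold that links the small subunit to the cap-binding complex, 3 were bound and 11 had a pooled region, with a median rank of 15326.5. The shares over all protein-coding genes were 6.22% bound and 48.0% with a pooled region. The gene eIF3h, at 2L 5051193 to 5053094 on the minus strand, had 2 IDR peaks. The peak at 5052391 to 5052786 had rank 610 and a summit in an intron, 191 bp inside the nearest start site, with a ratio of 3.84 in replicate 1 (rank 355) and no summit within 100 bp in replicate 2. The peak at 5052608 to 5053003 had rank 671 and a summit 26 bp upstream of that start site, in the 5' UTR of a longer transcript, with ratios of 2.41 in replicate 1 (rank 1180) and 3.90 in replicate 2 (rank 657), a mean of 3.15 ± 1.05 (SD, n = 2). The replicates thus favoured neighbouring summits of 1 promoter, and that promoter also serves senju, whose start site is 37 bp from the summit of the second peak.

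The gene eIF3c, at 2R 17665678 to 17669275 on the plus strand, had its peak at 17665444 to 17665839 with rank 638 and a summit 36 bp upstream. The ratio was 2.41 in replicate 1 (rank 1186) and 4.11 in replicate 2 (rank 588), a mean of 3.26 ± 1.21 (SD, n = 2), so the peak was among the strongest 1272 in each. No other gene starts within 500 bp of its summit. The gene eIF3a encodes the largest subunit of the scaffold and lies at 3R 4429798 to 4433895 on the minus strand. Its peak at 4433746 to 4434141 had rank 1178, and the ratios were 2.35 in replicate 1 (rank 1282) and 2.75 in replicate 2 (rank 1237), a mean of 2.55 ± 0.282 (SD, n = 2). It was the weakest of the 7 bound genes in the pooled list, with the smallest SD among them. The summit lies 49 bp upstream of eIF3a and 21 bp upstream of CG1074.

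Of the unbound subunits, eIF3m came first with pooled rank 1589 and ratios of 2.13 in replicate 1 (rank 1657) and 2.33 in replicate 2 (rank 1643). The core subunit eIF3b had rank 2154 with a ratio of 2.21 in replicate 2 and no region in replicate 1. Its pooled summit was 440 bp downstream of the nearest of its 2 start sites. The best regions of eIF3m had similar values in the replicates, but their summits were 151 bp apart. eIF3b was seen in 1 replicate only. Weaker regions were found at eIF3k (4114), eIF3f1 (8204), eIF3e (9772), eIF3d2 (20881), eIF3d1 (23220) and eIF3f2 (27318), where the values are pooled ranks. The genes eIF3g1, eIF3g2, eIF3i, eIF3j and eIF3l had no region in any list.

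Among the 13 genes of cap binding and unwinding, 1 was bound and 7 had a pooled region, against 6.22% and 48.0% of all genes. The median rank was 23238, against the last place for all protein-coding genes. The bound gene was eIF4EHP, which encodes a cap-binding protein that does not join eIF4G and represses the messages it holds, among them those of the embryonic patterning genes caudal and hunchback. It lies at 3R 24063077 to 24108960 on the minus strand, and its peak at 24109007 to 24109402 had rank 803 with a summit 245 bp upstream. The ratio was 3.72 in replicate 1 (rank 382) and 2.21 in replicate 2 (rank 1800), a mean of 2.97 ± 1.07 (SD, n = 2), so replicate 1 carried it. The start site of CG18428 lies 131 bp from the summit. A second IDR peak of eIF4EHP, at 24098980 to 24099375 with rank 975, lies in an intron 9782 bp from the start site.

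The helicase gene eIF4A was the nearest to the threshold of the unbound ones, with pooled rank 1569 and ratios of 2.09 in replicate 1 (rank 1742) and 1.42 in replicate 2 (rank 5422). For eIF4G2, the paralog of eIF4G that male germ cells need, the pooled rank was 6103 and the ratios were 1.12 in replicate 1 and 1.54 in replicate 2. The best region of each gene was above the list median in each replicate, though the eIF4A summits of the replicates were 189 bp apart. For eIF4G2, the replicate 1 region that matched the pooled summit had a ratio of 0.898. The main scaffold and cap-binding genes were far weaker, with eIF4G1 at rank 15337 and eIF4E1 at 22957, and eIF4H1 was at 23238. Among the cap-binding paralogs, eIF4E6 had rank 9255, and eIF4E3, eIF4E4, eIF4E5 and eIF4E7 had no region in any list, nor did eIF4B and eIF4H2.

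Elongation factor genes were bound in 1 of 8 cases, and 7 had a pooled region, against 6.22% and 48.0% of all protein-coding genes. The bound gene was eEF1gamma, a subunit of the exchange complex that recharges eEF1A with GTP, at 3R 29220172 to 29222109 on the plus strand. Its peak at 29220034 to 29220229 had rank 81 and a summit 4 bp upstream of the start site. The ratio was 6.26 in replicate 1 (rank 99) and 10.4 in replicate 2 (rank 79), a mean of 8.32 ± 2.92 (SD, n = 2). Both replicates put it among their strongest regions, and no other gene starts within 500 bp. It was the only one of the 21 factor genes whose start region was not shared, meaning no start site of another gene within 1000 bp, to be bound (4.76%), against 3.34% of such genes overall. None of the 19 initiation factor genes of that kind was bound, and 1 of the 2 elongation factor genes was.

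The other subunits of the exchange complex gave unequal values. eEF1delta had pooled rank 2504, with a ratio of 2.94 in replicate 1 (rank 698) and no region in replicate 2, and eEF1beta had a region in replicate 2 alone. The hypusine-bearing factor eEF5, which helps ribosomes past difficult stretches such as runs of proline, had pooled rank 1393 and ratios of 1.77 in replicate 1 (rank 2870) and 2.69 in replicate 2 (rank 1271). For eEF2, the translocase, the pooled rank was 2110 and the ratios were 2.13 in replicate 1 (rank 1654) and 1.44 in replicate 2 (rank 5183). The replicate 1 region that matched the pooled summit of eEF2 had a ratio of 1.54 (rank 4428). Of these genes, eEF1delta stood among the strongest 1272 regions in replicate 1 only, and eEF5 in replicate 2 only.

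Of the carriers of aminoacyl-tRNA, eEF1alpha1 had pooled rank 2925, a ratio of 3.07 in replicate 2 (rank 1015) and no region in replicate 1. Farther out it had IDR peaks 1198 and 1413 bp upstream, of ranks 871 and 900. The nearer of these had a ratio of 3.67 in replicate 1 (rank 396) and 1.16 in replicate 2 (rank 9789), and the other had a ratio of 2.11 in replicate 2 (rank 1976) and no match in replicate 1. Both summits lie outside eEF1alpha1 and are annotated as intronic to another gene. The paralog eEF1alpha2 had rank 6720 and eEFSec, the carrier for selenocysteine, had rank 28450.

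**Figure D3:**
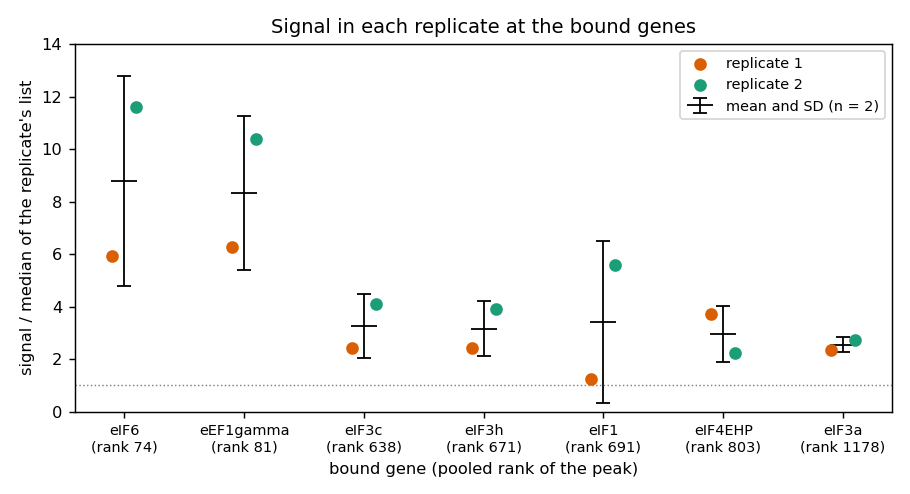
Ratio of signal to the median of the same replicate's list (linear axis) at the IDR peak of each bound factor gene, in replicate 1 (orange) and replicate 2 (green), with bars for the mean and SD (n = 2) and, for eIF3h, the peak of rank 671, which was matched in both. eIF6 and eEF1gamma lie above 5 in both replicates, and eIF1 lies at 1.24 in replicate 1 and 5.59 in replicate 2.

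Of the 7 bound factor genes, 5 shared their peak with the start of another gene (eIF6, eIF3h, eIF1, eIF4EHP and eIF3a). Only eEF1gamma and eIF3c had it to themselves. The share of genes bound also varied with the number of start sites. With 1 start site, 4 of 32 factor genes (12.5%) were bound against 4.23% of all genes, and with 2 start sites 3 of 17 (17.6%) against 9.24%. None of the 3 factor genes with 3 or more start sites was bound, against 17.5% of such genes. The part of shared promoters in the counts was not tested beyond these values. The summits were close to the genes in either case, with 6 of 7 upstream of the start site and a median position 49 bp upstream, against 139 bp upstream over the 868 bound genes, 85.9% of which had an upstream summit.

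**Figure D4:**
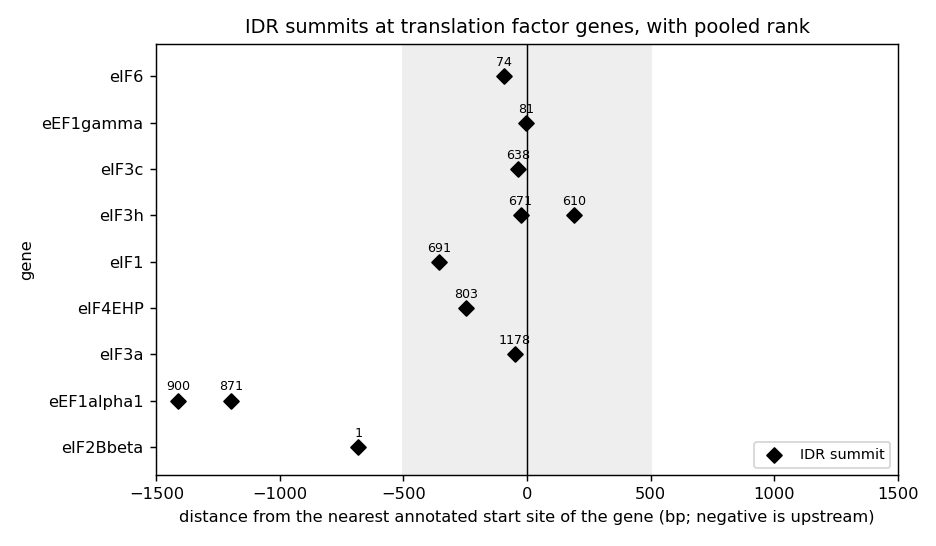
Distance in bp from the nearest start site to the summit of each IDR peak within 2000 bp of a factor gene (negative values upstream), one row per gene, with pooled ranks above the points and a grey band for 500 bp on either side. Bound genes lie within 500 bp, the eIF2Bbeta peak shared with Ugalt lies at -682, and the eEF1alpha1 peaks lie at -1198 and -1413.

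The sequences under the summits are shown because the bound promoters differ widely in composition and in the words they hold. The stretches below are read from the Release 6 genome (dm6) on the strand of the gene, within 50 bp of the summit, and are cut short where they would pass the start site or enter other transcribed leader sequence. Capitals mark the hypoxia response core (ACGTG or GCGTG on either strand, so also CACGT or CACGC), the DNA replication-related element or DRE (TATCGATA) and the TATA box (TATAAA or its complement TTTATA). They are eEF1gamma, chr3R:29220118-29220171, plus strand; eIF3h, chr2L:5052539-5052639, minus strand; eIF1, chr3L:3222961-3223034, plus strand; eIF4EHP, chr3R:24109155-24109255, minus strand; eIF3a, chr3R:4433896-4433964, minus strand; and the eIF2Bbeta and Ugalt peak, chrX:2703853-2703939, plus strand.
eEF1gamma: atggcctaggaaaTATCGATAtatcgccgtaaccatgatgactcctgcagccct
eIF3h: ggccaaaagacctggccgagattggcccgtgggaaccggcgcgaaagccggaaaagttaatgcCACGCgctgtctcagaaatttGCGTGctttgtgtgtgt
eIF1: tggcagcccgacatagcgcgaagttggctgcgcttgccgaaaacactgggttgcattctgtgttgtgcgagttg
eIF4EHP: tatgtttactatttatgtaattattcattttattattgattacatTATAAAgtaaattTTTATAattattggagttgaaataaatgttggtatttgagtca
eIF3a: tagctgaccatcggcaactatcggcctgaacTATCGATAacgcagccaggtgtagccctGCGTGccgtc
eIF2Bbeta: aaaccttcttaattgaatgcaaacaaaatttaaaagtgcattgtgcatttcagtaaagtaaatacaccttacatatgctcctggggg

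The eEF1gamma and eIF3a stretches hold a DRE just upstream of the start site, eIF3h and eIF3a hold hypoxia cores, eIF4EHP is a run of A and T with 2 TATA words, and the eIF1 and eIF2Bbeta stretches hold none of these words. Within 50 bp of the summit, the hypoxia core was found at 3 of the 7 bound genes (eEF1gamma, eIF3h and eIF3a, 42.9%), against 13.3% of the 1272 IDR peaks. With 100 bp on either side it was found at 4 of 7 (57.1%), against 30.3%. The core at eEF1gamma lies past the start site, outside the stretch shown. The eIF3h window and stretch are those of its rank 610 summit. That summit had no match within 100 bp in replicate 2. The E-box CACGTG, a palindrome that holds ACGTG, was found at 0 of 7 against 1.10% of IDR peaks. The DRE was found at 2 of 7 (28.6%) against 1.73%, and at 4 of 7 (57.1%) against 3.46% when 100 bp on either side was read. The TATA box was found at 2 of 7, eIF6 and eIF4EHP, against 17.5%, and the letters GGTCACAC, the core of a common fly promoter motif, at 0 of 7 against 0.708%. The 7 summits all lie within 500 bp of a start site, whereas the 1272 IDR peaks were not limited to promoters. These shares therefore compare unlike sets, and summit windows of promoter peaks alone were not compared. Within 50 bp of any start site, the hypoxia core stood in 4 of the 7 bound factor genes and in 359 of all 868 bound genes. The DRE stood there in 3 of 7 and in 74 of 868. A match describes the letters and not a protein on them, and 7 windows allow no more than this count.

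Base composition differed as much among these peaks as between them and the rest. The G+C content within 50 bp of the summit was 56.4% at eIF3h, 57.4% at eIF3a, 52.5% at eEF1gamma, 49.5% at eIF1, 40.6% at eIF6, 24.8% at eIF3c and 16.8% at eIF4EHP. The eIF3h value is that of its rank 610 summit, which was not matched in replicate 2. The median over these genes was 49.5%, against 33.7% over all IDR peaks, which were not limited to promoters. The part of base composition in the word counts was not tested.

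At the start sites themselves, whether bound or not, the DRE stood within 50 bp in 10 of the 52 factor genes (19.2%), against 6.07% of all protein-coding genes. They were eEF1delta, eEF1gamma, eIF2Bbeta, eIF2alpha, eIF2gamma, eIF3a, eIF3f1, eIF3l, eIF4B and eIF6, and 3 of these 10 were bound, against 8.75% of all genes with the element. Without it, 4 of 42 factor genes and 6.06% of all genes were bound. A set of 10 genes allows no comparison with these shares. The hypoxia core stood there in 22 factor genes (42.3%) against 27.5% of all genes. The initiator words TCAGT and TCATT, read on the sense strand, were found in 2 factor genes (3.85%, eEF1alpha2 and eIF2gamma), against 18.0% of all genes.

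Many genes of the translation machinery start at a pyrimidine-rich TCT initiator in flies, and it was searched for as TCTTT or CCTTT on the sense strand, with the second base within 5 bp of a start site. It was found in 6 factor genes (11.5%), eEF2, eEF5, eIF3f1, eIF3i, eIF3m and eIF4A, against 3.31% of all genes. None of the 6 was bound, while 14.3% of all genes with the word were, and 6 genes allow no comparison with that share. By pooled rank, eEF5 (1393), eIF4A (1569), eIF3m (1589) and eEF2 (2110) sat past the IDR list but within double its length. Of the others, eIF3f1 had rank 8204 and eIF3i had no region. The initiators that carry it at 4 of these genes are shown in 25 bases from Release 6 with the word in capitals, at chr2L:21682104-21682128 (eEF2, minus strand), chr3R:4714170-4714194 (eIF3f1, minus strand), chr2L:4967763-4967787 (eIF3i, minus strand) and chr2L:5981752-5981776 (eIF4A, plus strand).
eEF2: gctgcagcgcctcgcTCTTTcctgt
eIF3f1: gcactatcgataggcCCTTTtcttg
eIF3i: gccacggtcacactgcTCTTTtggc
eIF4A: ttgcaagatggagccTCTTTtgctt

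Other genes of translation were looked up in the same way. Of 22 cytoplasmic partners and regulators, 1 was bound (4.55%), which is near the 6.22% of all protein-coding genes. The bound gene was Rack1, a scaffold on the small ribosomal subunit, with rank 1195 and a summit 4 bp inside the start site that it shares with mts, and its ratio was 1.25 in replicate 1 and 3.96 in replicate 2. Of 9 mitochondrial translation factors, 0 were bound, and so few genes allow no comparison with that share. With genes that lack a region placed last, the median rank was 6515.5 for the cytoplasmic list and 22931 for the mitochondrial one, against the last place for all protein-coding genes. Several regulators, picked out after their values were seen, sat past the IDR list but within double its length. Their pooled ranks were 1458 for RpS6, 1492 for Thor, 1731 for S6k, 2151 for eRF1 and 2435 for Lk6. The replicates differed for most of them, with ranks in replicates 1 and 2 of 724 and 10392 for Thor, 1290 and 3407 for S6k, 8131 and 1266 for eRF1, and 22507 and 1111 for Lk6. RpS6 had ranks 1468 and 1708. Thor is the fly 4E-BP, the repressor of cap binding, S6k is the kinase of the ribosomal protein RpS6, and Lk6 is the kinase of eIF4E.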

How the data were processed

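Regions were called by the authors for each of 2 replicates and for their pooled reads against 1 control file, on dm6, per the accompanying text files. The deposited lists give a signal value per region and a summit offset in bp. The peak caller, the IDR threshold and all software versions were not given in the sources used here. The depth per sample is unknown for want of read numbers. No statistical test was made, since there is 1 group and the control was not analysed here.

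Ranks, ratios to the list's median signal and distances were computed with pandas 2.3.3, numpy 2.4.6 and scipy 1.17.1 under Python 3.11.15 (figures in matplotlib 3.10.9), with gene models from Ensembl release 115 (BDGP6.54) and the Release 6 genome. A summit within 500 bp of any start site counted, and summits of different lists were matched within 100 bp. Mean ± SD is over the matched replicate regions. For unbound factor genes, replicate values belong to the best region within 500 bp in that replicate. Its summit may differ from the pooled summit. The lookup was tested on simulated summits. Positions count from 1, and 116 of 116 start codons of the factor genes read ATG at their annotated place.

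The members, gene lists and words were chosen with earlier results of these data known. Replicate values are given for bound members and for the 2 best-ranked unbound members of each role group. Values for eEF1delta, eEF1alpha1 and the peaks beyond 500 bp were added after they were seen. In the partner list, Tor was looked up as mTor and mEFG2 as mRRF2.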

Additional observations from a re-analysis of the deposited data

How the results depend on the processing

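The initiation share exceeded the elongation share by 1.14 percentage points, and the sign did not hold in most settings. It stayed at 1.14 from the outermost start site and with any overlap of the 500 bp window, and was 3.41 at 1000 bp. The difference was -3.41 at 200 bp, -9.09 at 2000 bp, -7.95 with the stronger 636 of the 1272 IDR regions, -25.0 with double its length, -50.0 for genes whose start region was not shared, -0.952 with eEF5 counted for initiation (chosen after the data were seen), and between -26.1 and -15.9 when either replicate was left out. With 8 elongation genes, 1 gene moves that share by 12.5 points. The difference in median rank (11907, initiation minus elongation) kept its sign: 23864 at 200 bp, 6799 at 1000 bp, 3727 at 2000 bp, 17438.5 from the outermost start site, 23917.5 for unshared start regions, and 6754 to 10955 without either replicate. The setting of unshared start regions left 19 initiation and only 2 elongation genes, and all other medians for elongation rest on 8. Bound initiation genes numbered 2 with the stronger 636, 11 with double length and 0 of 19 with unshared start regions, and all factor genes 3, 15 and 1 of 21. The shares of all protein-coding genes in those settings were 3.27%, 11.2% and 3.34%. Bound elongation genes numbered 2 at 2000 bp, 4 with double length, and 2 to 3 without either replicate. The TATA share was 0% at the 7 start sites nearest the bound genes' peaks, against 9.09% of the 77 start sites of all factor genes and 15.3% of those of all genes. For the 17 named members, ranks in the single replicates set the spread used here, so counts against it do not measure stability. The rank stayed within that spread in 98 of 119 alternatives, many of which kept the same region. It moved beyond the spread in 14, all of them with 1 replicate left out. In the other 7 the gene had no region: eIF1, eIF4EHP, eIF2beta and eIF3b at 200 bp, eIF3b and eIF4A from the outermost start site, and eIF3b without replicate 2. Unknown depth and a single group limit all of these values; the causes were not tested.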
